A study of Mus musculus with 12 samples.

Results

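Chemokines are small secreted proteins that direct the movement of leukocytes, and this account describes the genes for chemokines and their receptors in alveolar macrophages from fibrotic mouse lungs. The members are the genes of the deposited table whose mouse symbol begins with Ccl, Cxcl, Ccr, Cxcr, Ccrl or Ackr followed by a digit, leaving out Ccr2, Ccr7, Ccl17 and Ccl22. The rule matches names and uses no measured value, but the members were chosen with earlier results of these data known. The genes described are 49 of the 26855 in the table: 31 ligands, 13 conventional receptors and 5 atypical receptors. Of these, 26 had enough counts to be tested (19 ligands, 6 receptors and the atypical receptor gene Ccrl2), and the other 23 are accounted for near the end. A further 13 annotated genes fit the rule but were not analysed here, among them Ccl11, Ccl19 and Cxcl13.

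Cells were washed from the airspaces of mice (bronchoalveolar lavage) 14 days after they received bleomycin, an agent whose lung injury is followed by fibrosis. The study separated lavage cells by size with a filter, into a fraction enriched for and a fraction poor in what it calls BAAM, which its title spells out as border-associated alveolar macrophages. Within these fractions it sorted macrophages by side scatter, a measure of granularity, and by staining with BODIPY, a dye of neutral lipid, into high, intermediate and low populations. The 12 libraries carry the titles UPBIG, UPSMALL and DOWN, 4 of each, and all are labelled alveolar macrophages. No label ties a title to a fraction or gate, so the titles serve as names only. All 3 groups come from bleomycin-treated mice, and no untreated group is among the samples used here. Strain, sex, age and the number of animals behind each library are not given, so p-values measure the spread between libraries, which may be technical.

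As background, chemokines bind receptors that couple to inhibitory G proteins, and the bound receptor turns a cell toward the source of the ligand. CC ligands such as Ccl2, Ccl3 and Ccl5 act mainly on CC receptors of monocytes, macrophages and T cells, while CXC ligands with an ELR motif, such as Cxcl1 and Cxcl2, act on Cxcr2 and Cxcr1, best known from neutrophils. Atypical receptors bind or scavenge chemokines without the usual G protein signal. In the lung, alveolar macrophages are a major source of chemokines after injury.

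The library totals ran from 17109669 to 23282621 counts. Levels are CPM values, that is, counts relative to library totals after trimmed mean of M-values (TMM) scaling, and errors are the SD of 4 libraries. The 12 alveolar macrophage markers examined were all tested and none was at 0 in a group, with a summed level of 119944 to 124744 CPM in UPBIG, 60707 to 119448 in UPSMALL and 78368 to 111629 in DOWN, most of it Lyz2 (mean 111109 CPM in UPBIG). Of the 12, 6 were called higher and 0 lower in UPBIG against DOWN (Ear2, Siglecf, Plet1, Mertk, Marco and Itgax), beside 9.03% of all genes higher. In each of the other comparisons 3 were called higher and 0 lower, beside 3.22% higher in UPBIG against UPSMALL and 0.594% in UPSMALL against DOWN. The part of these markers in the receptor and ligand values was not tested. Of 7 markers of eosinophils, basophils and mast cells 1 had values here, at most 0.0734 CPM, and of 6 markers of fibroblasts and endothelium 5 had values, which summed to at most 1.72 CPM in a library. Markers of other leukocytes and of epithelium are given beside genes usually tied to such cells, whether or not they moved together, or with the methods.

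More members were called between UPBIG and DOWN than in the other comparisons, among them 5 of the 6 tested receptors and 2 of the 19 tested ligands (10.5%), beside 17.5% of all genes. Cxcr1 and Cxcr2 rose together with the ligand gene Ccl6, and Ccr1, Cxcr6, Cxcr3 and the ligand gene Cxcl16 fell, in UPBIG relative to DOWN. These 7 of 26 members (26.9%) passed an adjusted p of 0.05 (edgeR quasi-likelihood test, Benjamini-Hochberg over the 12625 genes tested), beside the same 17.5%. The 3 that were higher stand beside 9.03% of all genes and the 4 that were lower beside 8.48%. The median log2 fold change was -0.23 over the 26 members and -0.03 over all genes.

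UPBIG against UPSMALL gave 4 called members, with Cxcr1 and Cxcr2 higher and Cxcl16 and Cxcl14 lower in UPBIG. That is 15.4% of the 26, beside 5.70% of all genes (3.22% higher and 2.49% lower), and the median log2 fold change was -0.32 over members and -0.03 over all genes. UPSMALL against DOWN gave 1, Cxcr6, which was lower in UPSMALL. This is 3.85% of the members beside 1.14% of all genes (0.594% higher and 0.547% lower), and the medians were 0.02 over members and -0.00 over all genes. The 3 comparisons share libraries in pairs, so their values are set side by side and not counted as separate evidence.

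**Figure D1:**
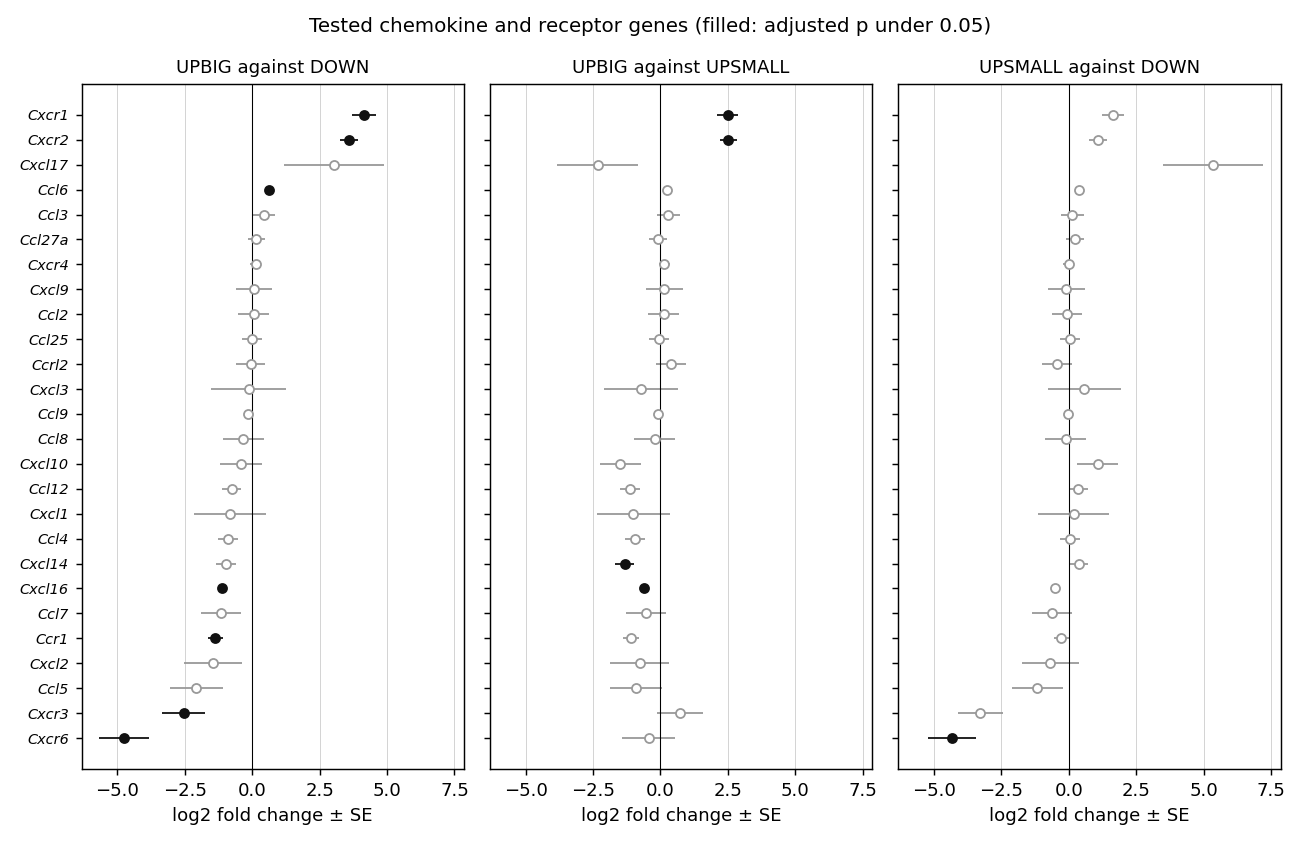
Log2 fold change (x axis, with its standard error as bar) of the 26 tested genes in the 3 comparisons; filled points passed an adjusted p of 0.05. Cxcr1 and Cxcr2 stand at the upper end of the 2 UPBIG panels, at 4.15 and 3.59 against DOWN and 2.50 and 2.52 against UPSMALL, and Cxcr6 is filled on the lower side in both DOWN panels.

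Cxcr1 and Cxcr2 encode receptors for ELR-bearing CXC ligands and interleukin-8-like proteins. They are neighbours on chromosome 1 in mm10, Cxcr2 at chr1:74153989-74161246 on the plus strand and Cxcr1 at chr1:74191785-74194631 on the minus strand, 30.5 kb apart with 0 protein-coding genes between. Their promoters are shown because both genes moved the same way from this shared position, with capitals marking the letters GAAANNGAA (an interferon response motif, either strand). Each window holds 250 bases before and 50 after the start (RefSeq, GRCm38.p6), Cxcr1 at chr1:74194582-74194881, minus strand, and Cxcr2 at chr1:74153744-74154043, plus strand.
Cxcr1: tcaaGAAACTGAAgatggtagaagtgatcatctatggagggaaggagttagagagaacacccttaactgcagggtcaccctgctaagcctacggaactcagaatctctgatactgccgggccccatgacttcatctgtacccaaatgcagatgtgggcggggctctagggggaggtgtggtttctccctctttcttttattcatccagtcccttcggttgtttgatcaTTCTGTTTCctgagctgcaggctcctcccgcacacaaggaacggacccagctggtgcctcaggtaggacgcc
Cxcr2: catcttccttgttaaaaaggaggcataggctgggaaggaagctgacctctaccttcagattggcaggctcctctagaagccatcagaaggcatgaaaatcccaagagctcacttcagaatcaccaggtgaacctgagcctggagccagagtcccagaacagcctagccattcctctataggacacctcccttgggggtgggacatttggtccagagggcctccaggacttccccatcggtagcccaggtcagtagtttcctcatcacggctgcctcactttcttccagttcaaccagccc
The interferon letters occur in the Cxcr1 window at positions -246 and -22 from the start and not in the Cxcr2 window. Of all 32851 promoter windows of the same length, 8.6% hold these letters. The letters of the NF-kB motif (GGANNTTCC, 4.3% of all windows) and of the STAT motif (TTCNNNGAA, 8.3%) are in neither window.

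Cxcr1 stood at 46.6, 44.8, 42.6 and 31.1 CPM in UPBIG replicates 1 to 4, at 8.92, 9.54, 7.42 and 3.52 in UPSMALL, and at 4.63, 1.35, 2.18 and 1.04 in DOWN. All 4 UPBIG libraries lay above every other library, while UPSMALL and DOWN overlapped through UPSMALL replicate 4 and DOWN replicate 1. The group means were 41.2 ± 6.98, 7.35 ± 2.7 and 2.3 ± 1.63 CPM (SD, n = 4). By the edgeR quasi-likelihood test Cxcr1 was 17.8-fold higher in UPBIG than in DOWN (log2 fold change 4.15, SE 0.43, adjusted p = 2.2e-05) and 5.64-fold higher than in UPSMALL (2.50, SE 0.39, adjusted p = 0.00169). UPSMALL against DOWN did not pass, at 1.66 (SE 0.41, adjusted p = 0.0804). Without DOWN replicate 1, the UPBIG to DOWN value was 4.77 and the UPSMALL to DOWN value was 2.27, which passed (adjusted p = 0.0028), and without UPSMALL replicate 4 the latter was 1.90 and also passed (adjusted p = 0.0275). It passed by DESeq2 (1.67, adjusted p = 0.0174), without a low-count filter (adjusted p = 0.00037) and with library totals (1.60, adjusted p = 0.0481) as well.

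Cxcr2 showed the same order at a lower level. Its values were 17.1, 15.1, 18.6 and 15.0 CPM in UPBIG, 3.29, 2.15, 4.27 and 1.8 in UPSMALL and 2.25, 0.77, 0.861 and 1.51 in DOWN. UPBIG did not overlap either other group, and UPSMALL and DOWN overlapped each other. Cxcr2 was 12.1-fold higher in UPBIG than in DOWN (log2 fold change 3.59, SE 0.34, adjusted p = 5.82e-07) and 5.72-fold higher than in UPSMALL (2.52, SE 0.32, adjusted p = 5.28e-05). UPSMALL against DOWN stood at 1.08 (SE 0.34, adjusted p = 0.138) and did not pass. Per kilobase of exon, the level of Cxcr1 was 5.14 ± 0.83 times that of Cxcr2 in UPBIG, 5.55 ± 2.51 times in UPSMALL and 3.59 ± 1.6 times in DOWN (SD, n = 4). The receptors are close relatives, and what share of reads fit both genes is not given. The deposited Cxcr1 counts were whole numbers in all 12 libraries, while some of the Cxcr2 counts were not.

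Because these receptors are best known from neutrophils, neutrophil markers stand beside them, of which 11 of 13 had values. Their summed level was 371.7 to 413.9 CPM in UPBIG, 182.8 to 239.6 in UPSMALL and 158.5 to 198.4 in DOWN, and S100a8 made up most of it, at a mean of 374.9, 168.6 and 128.2 CPM. Of the 5 that were tested, S100a8 was called higher and Mmp8, a granule collagenase, lower in UPBIG than in DOWN. S100a9, the usual partner of S100a8, was not called, with means of 2.55, 1.36 and 7.25 CPM. The granule genes Camp, Mpo and Elane were at or near 0 in every group, with 12, 1 and 3 counts over all 12 libraries. The part of other cells in the receptor values was not tested.

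**Figure D2:**
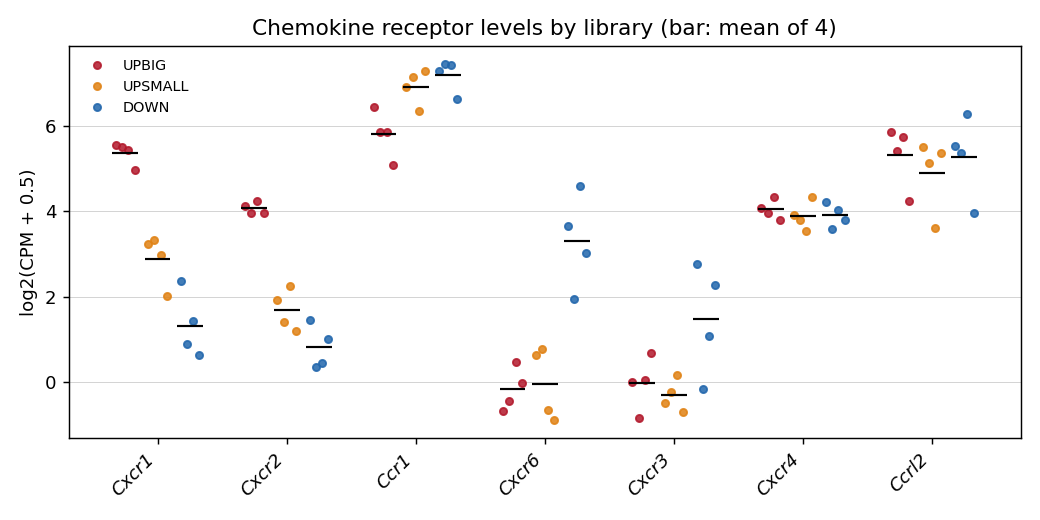
Levels of the 6 tested receptors and of Ccrl2, as log2(CPM + 0.5) on the y axis, 1 point per library, with the mean of 4 as a bar. Cxcr1 and Cxcr2 are highest in UPBIG, Ccr1 in UPBIG lies below DOWN without overlap, and Cxcr4 and Ccrl2 overlap in all groups.

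Ccr1, a receptor of monocytes and macrophages for Ccl3, Ccl5 and related CC ligands, was lower in UPBIG. It lies in the CC receptor cluster of chromosome 9, at chr9:123962124-123968692 on the minus strand (mm10). Ccr1 stood at 87.5, 57.4, 57.5 and 33.5 CPM in UPBIG, 119.8, 141.8, 81.5 and 157.2 in UPSMALL and 157.4, 176.1, 172.3 and 98.5 in DOWN. UPBIG lay below DOWN throughout, and UPSMALL replicate 3 fell within the UPBIG range. Ccr1 fell by 1.36 on the log2 scale (SE 0.29, adjusted p = 0.00685 by edgeR) in UPBIG against DOWN. The difference of UPBIG from UPSMALL just missed the threshold, at -1.08 (SE 0.29, adjusted p = 0.0505), and passed in 6 of the alternatives (adjusted p 0.00919 to 0.0445), among them those without UPBIG replicate 1, UPSMALL replicate 3 or DOWN replicate 4. UPSMALL against DOWN was -0.27 (SE 0.28, adjusted p = 0.766). In bulk libraries such as these, fewer cells of a type that carries a transcript and less of it per cell cannot be told apart.

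Cxcr6, the receptor for Cxcl16, and Cxcr3, the receptor for Cxcl9 and Cxcl10, are known from activated T cells and NK cells, and both were scarce in UPBIG. Cxcr6 lies at chr9:123806475-123811760 on the plus strand, overlapping Fyco1 on the other strand, and Cxcr3 at chrX:101731535-101734269 on the minus strand (mm10). Cxcr6 stood at 0.125, 0.239, 0.878 and 0.477 CPM in UPBIG, 1.06, 1.2, 0.133 and 0.0367 in UPSMALL and 12.2, 3.32, 23.8 and 7.63 in DOWN, which rests on 28, 48 and 984 counts. Only with the DOWN libraries, which lay above both other groups throughout, did Cxcr6 reach the low-count filter. The log2 fold change was -4.75 (SE 0.93, adjusted p = 0.00389 by edgeR) in UPBIG against DOWN and -4.32 (SE 0.88, adjusted p = 0.0421) in UPSMALL against DOWN. The former was -5.38 without UPBIG replicate 3 and -4.13 without DOWN replicate 3, and was called in both. The latter was lost without any of UPBIG replicates 2 and 4, UPSMALL replicates 1 to 3 and DOWN replicates 1, 3 and 4 (adjusted p 0.052 to 0.0942). UPSMALL replicates 1 and 2 also set the sign of the small UPBIG to UPSMALL difference, -0.43 (SE 0.98, adjusted p = 0.886). The gene Fyco1, whose span overlaps that of Cxcr6, was at 10.0, 9.51 and 11.2 CPM in UPBIG, UPSMALL and DOWN. Whether their exons share reads was not examined, and the deposited Cxcr6 counts were whole numbers in all 12 libraries.

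Cxcr3 stood at 0.498, 0.0597, 0.527 and 1.09 CPM in UPBIG, 0.212, 0.349, 0.622 and 0.11 in UPSMALL and 6.27, 0.385, 1.62 and 4.33 in DOWN, from 34, 28 and 277 counts. DOWN replicate 2 lay within the range of the other groups, so the groups overlapped. UPBIG against DOWN was called at -2.54 (SE 0.81, adjusted p = 0.0352 by edgeR), but not without UPBIG replicate 1, 2 or 3 or DOWN replicate 1 or 4 (adjusted p 0.074 to 0.161). That value ran from -3.10 without UPBIG replicate 4 to -1.94 without DOWN replicate 1. UPSMALL against DOWN, at -3.27 (SE 0.83, adjusted p = 0.065), did not pass, but without DOWN replicate 2 it was -3.63 and passed (adjusted p = 0.0323). It passed by DESeq2 (adjusted p = 0.00363), and by edgeR without a low-count filter (0.000552) and with library totals (0.0494) as well.

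Most T and NK cell markers were lower alongside these receptors. Of the 13 tested among 15, 9 were called lower in UPBIG than in DOWN, beside 8.48% of all genes. In UPSMALL 6 were called lower than in DOWN, beside 0.547%. Several of these markers, among them Trac, Cd3e and Cd8a, reached the low-count filter only with the DOWN libraries. Such genes could hardly be called higher than in DOWN, so the counts of lower markers are a description only. The T cell receptor chain gene Trbc2 had means of 0.778, 0.724 and 12.6 CPM in UPBIG, UPSMALL and DOWN, the CD3 chain gene Cd3d 0.793, 0.657 and 11.5, and the cytotoxic granule gene Nkg7 1.4, 0.818 and 21.2. The summed level of the list was 115.7 to 194.9, 68.1 to 119.6 and 119.6 to 236.1 CPM, and most of it in UPBIG was Cd2 (mean 96.4 CPM) and Il7r. Not every marker followed this order: Cd4 was called higher in UPBIG than in UPSMALL (means of 4.46 and 0.806 CPM, and 1.66 in DOWN), Gzma had 126 counts in UPBIG, all in replicate 3, and 64 in DOWN, and Ncr1, an NK cell receptor, had 1 count in all. Of 10 dendritic cell markers 9 were tested and 6 were called lower in UPBIG than in DOWN, beside 8.48% of all genes. Against UPSMALL 2 were called lower in UPBIG, beside 2.49%, and 0 were called in UPSMALL against DOWN. Their summed levels were 8.02 to 11.7, 12.6 to 23.3 and 34.9 to 56.3 CPM in UPBIG, UPSMALL and DOWN. Of the dendritic cell markers, Il4i1, Flt3 and Fscn1 likewise reached the filter only with the DOWN libraries, so these counts too are a description only. The part of T, NK and dendritic cells in the Cxcr6 and Cxcr3 values was not tested.

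**Figure D3:**
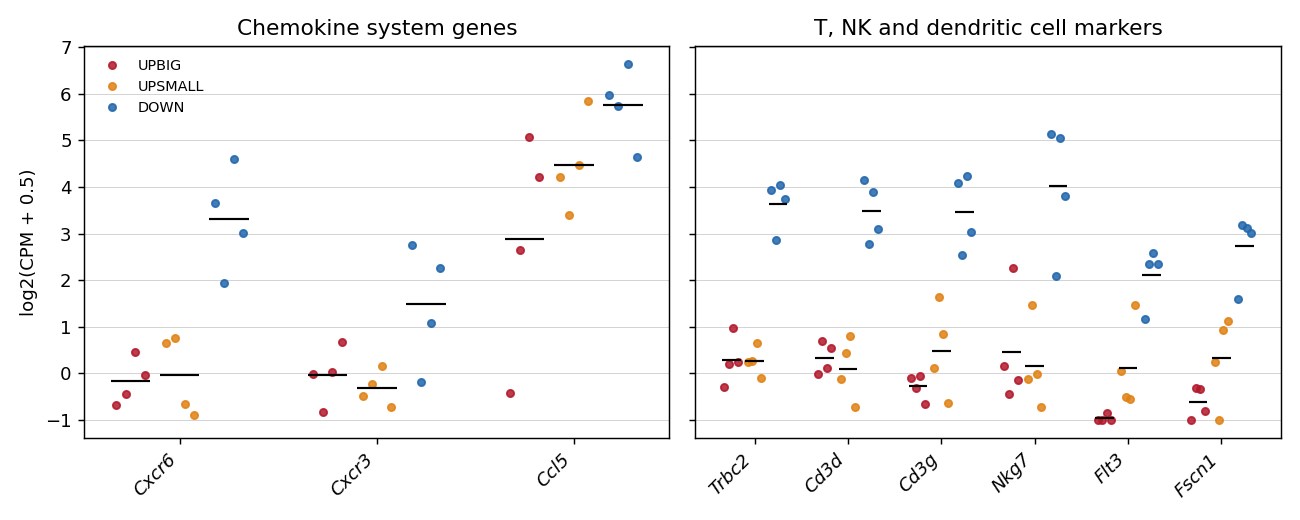
Levels of Cxcr6, Cxcr3 and Ccl5 (left) and of 4 T and NK cell markers and 2 dendritic cell markers (right), as log2(CPM + 0.5), 1 point per library, with the mean of 4 as a bar. Cxcr6, Trbc2, Cd3d and Cd3g separate DOWN from both other groups, whereas for Cxcr3 and Ccl5 a DOWN library lies within the range of the others.

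Cxcr4, the receptor for Cxcl12, and Ccrl2, an atypical receptor that binds chemerin, were the tested receptors not called in any comparison. Cxcr4 ranged from 13.4 to 19.7 CPM in UPBIG, 11.1 to 19.6 in UPSMALL and 11.6 to 18.2 in DOWN. Ccrl2 ranged from 18.5 to 57.8, 11.8 to 45.2 and 15.0 to 77.0 CPM. Per kilobase of exon, which allows genes to be set against each other, the highest mean level in UPBIG was that of Cxcr1 (27.7 CPM per kb, range 20.8 to 31.2), followed by Ccr1 (20.8, range 11.8 to 30.9), whose ranges overlapped, then Ccrl2 (16.5), Cxcr4 (8.94) and Cxcr2 (5.39). In DOWN the order was Ccr1 (53.3 CPM per kb), Ccrl2 (17.2), Cxcr4 (8.15), Cxcr6 (6.09), Cxcr3 (1.82), Cxcr1 (1.54) and Cxcr2 (0.442). Thus Cxcr1 was first of the 7 in UPBIG and sixth in DOWN. UPSMALL had Ccr1 first (44.1 CPM per kb) and Cxcr1 at 4.93, behind Ccrl2 and Cxcr4.

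Among the ligands, Ccl6, a CC chemokine of rodent macrophages that acts on Ccr1, made up nearly all of the family's signal. It stood at 11105, 10569, 14277 and 9968 CPM in UPBIG, 10307, 10926, 8748 and 8648 in UPSMALL and 8162, 6956, 9051 and 5383 in DOWN. UPBIG lay above DOWN without overlap, and UPSMALL overlapped both. Ccl6 (chr11:83587882-83593087, minus strand, mm10) was 1.55-fold higher in UPBIG than in DOWN (log2 fold change 0.64, SE 0.16, adjusted p = 0.00854 by edgeR). Against UPSMALL it was 0.25 higher (SE 0.16, adjusted p = 0.454), and UPSMALL was 0.39 above DOWN (SE 0.16, adjusted p = 0.291), neither of which passed. Scaling by library totals alone ended the UPBIG to DOWN call (0.33, adjusted p = 0.0866) and turned the UPBIG to UPSMALL value to -0.02. That scaling also moved the median of all genes, to -0.36 and -0.31.

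The 49 members together took 1.22% ± 0.204 of scaled library counts in UPBIG, 1.06% ± 0.116 in UPSMALL and 0.843% ± 0.177 in DOWN (SD, n = 4). Ccl6 alone took 1.15%, 0.966% and 0.739%. Of the unscaled library counts it took 1.00%, 1.02% and 0.798%, so that UPBIG and UPSMALL were in the other order. On the scaled counts the means of the other members ran in the opposite order, 0.0761% ± 0.0129, 0.0903% ± 0.0104 and 0.104% ± 0.0204, a description for which no test was run.

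Cxcl16 encodes a membrane-bound chemokine that also acts as a scavenger receptor and is the ligand of Cxcr6. Its levels were 101.2, 95.4, 114.9 and 81.5 CPM in UPBIG, 160.7, 172.4, 131.9 and 132.8 in UPSMALL and 202.8, 237.1, 239.0 and 179.3 in DOWN, with no overlap among the 3 groups. UPBIG was lower than DOWN by -1.13 on the log2 scale (SE 0.13, adjusted p = 8.04e-06 by edgeR) and lower than UPSMALL by -0.60 (SE 0.13, adjusted p = 0.00793). UPSMALL against DOWN, at -0.52 (SE 0.13, adjusted p = 0.0606), did not pass, but did so without DOWN replicate 4 (adjusted p = 0.0399) and by DESeq2 (adjusted p = 0.0132), without a low-count filter (0.00748) and with library totals (0.0284). Cxcl16 (chr11:70453983-70459984, minus strand, mm10) overlaps Zmynd15 on the other strand. Zmynd15 had 990.09 counts over all libraries and fell by 3.69 (SE 0.42, adjusted p = 5.1e-06) from DOWN to UPBIG. Its mean level of 0.637 to 8.39 CPM was a small part of the level of Cxcl16.

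Cxcl14, a chemokine of epithelia and stroma that draws monocytes and dendritic cells, differed between the UPBIG and UPSMALL groups. It stood at 5.29, 2.99, 2.17 and 4.16 CPM in UPBIG, 12.3, 10.0, 8.18 and 6.24 in UPSMALL and 3.81, 5.48, 5.47 and 13.7 in DOWN. UPBIG lay below UPSMALL throughout, by -1.33 on the log2 scale (SE 0.37, adjusted p = 0.0409 by edgeR), and DOWN overlapped both. The call was lost without any 1 of UPBIG replicates 2 to 4, UPSMALL replicates 1 to 3 or DOWN replicate 2 (adjusted p 0.0513 to 0.118). UPBIG against DOWN, at -0.96 (SE 0.37, adjusted p = 0.0831), did not pass, and was -0.42 without DOWN replicate 4, the highest library of its group. Without DOWN replicate 1 it was -1.16 and passed (adjusted p = 0.0404). Epithelial marker sums, the list nearest to a usual source of this gene, were 18.4 to 265.9 CPM in UPBIG, 12.6 to 55.2 in UPSMALL and 9.19 to 16.2 in DOWN. Scgb1a1 made up most of the highest sum, at 212.2 CPM in UPBIG replicate 2. Not every marker followed the sums: Epcam, not called in any comparison, had means of 1.97, 4.14 and 3.79 CPM in UPBIG, UPSMALL and DOWN. Its highest library was DOWN replicate 4 (6.31 CPM). The part of epithelial cells in the Cxcl14 values was not tested.

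**Figure D4:**
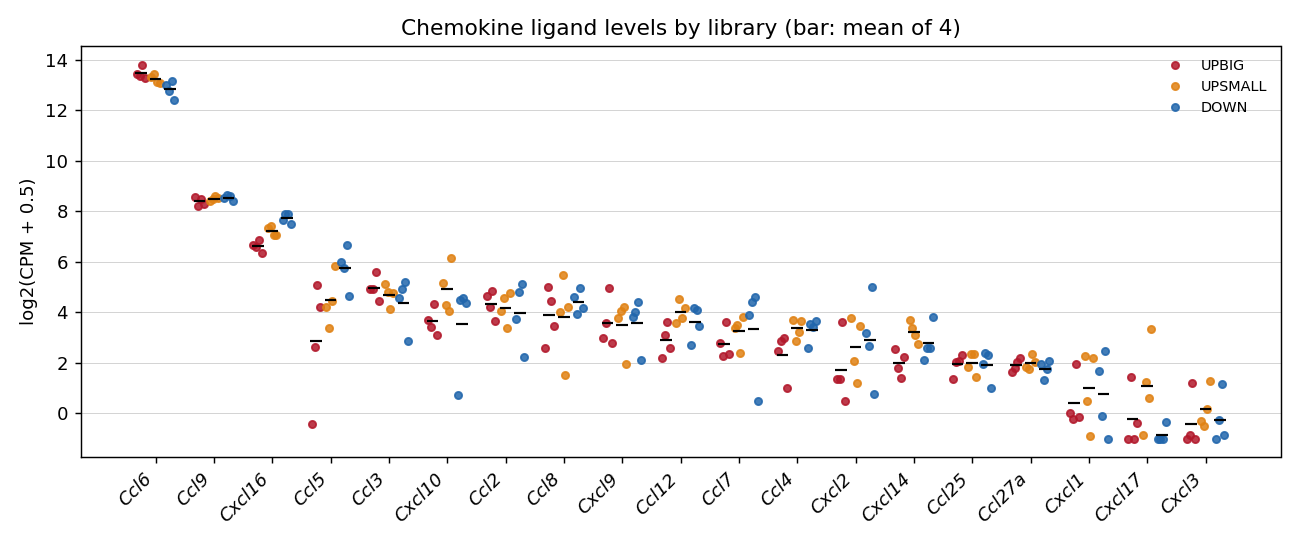
Levels of the 19 tested ligands in order of mean level, as log2(CPM + 0.5) on the y axis, 1 point per library, with the mean of 4 as a bar. Ccl6 stands far above every other ligand, Cxcl16 steps down from DOWN to UPBIG, and the libraries of a group spread widely for Cxcl1, Cxcl2, Cxcl3, Cxcl17 and Ccl5.

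The other 16 tested ligands passed in no comparison. Ccl9, a relative and neighbour of Ccl6 that also binds Ccr1, was the next most abundant per kilobase, at 381.2, 296.2, 360.0 and 311.9 CPM in UPBIG, 339.5, 353.7, 383.8 and 371.2 in UPSMALL and 366.7, 401.3, 383.0 and 336.6 in DOWN. Its groups overlapped and its libraries were close to each other, unlike those of the inducible ligands. Ccl3, a ligand of Ccr1, stood at 29.4, 29.9, 48.0 and 21.5 CPM in UPBIG, 34.2, 27.6, 17 and 26.3 in UPSMALL and 23, 29.4, 36.6 and 6.83 in DOWN. Ccl2, the main monocyte attractant, stood at 24.3, 17.8, 28.0 and 12.1 CPM in UPBIG, 16.1, 22.9, 10.0 and 26.6 in UPSMALL and 12.7, 27.8, 34.2 and 4.19 in DOWN. For both genes DOWN replicate 4 was the lowest of all 12 libraries.

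Ccl8 and Ccl12, close relatives of Ccl2, also overlapped among groups. Ccl8 stood at 5.54, 31.3, 21.6 and 10.6 CPM in UPBIG, 15.7, 44.0, 2.36 and 18.1 in UPSMALL and 23.9, 14.6, 30.5 and 17.3 in DOWN. Ccl12 stood at 4.11, 8.18, 11.9 and 5.52 in UPBIG, 11.5, 22.7, 13.1 and 17.3 in UPSMALL and 5.97, 17.6, 16.5 and 10.4 in DOWN. UPSMALL replicate 2 held the highest value of both genes. Ccl12 in UPBIG against UPSMALL did not pass in the main model (-1.12, adjusted p = 0.0908 by edgeR). It was called lower in UPBIG without UPBIG replicate 3 (-1.44, adjusted p = 0.0282) or DOWN replicate 1 (-1.11, adjusted p = 0.0384). DESeq2 called it too (adjusted p = 0.0187), as did edgeR with library totals (0.0202), no low-count filter (5.99e-05), a replicate block (0.004) or only the 8 libraries compared (0.0476). In UPBIG against DOWN it was called with library totals, no filter or the block. Ccl5, a ligand of Ccr1 made in quantity by T and NK cells, stood at 0.249, 5.73, 33.0 and 18.0 CPM in UPBIG, 18.2, 9.99, 21.6 and 57.2 in UPSMALL and 62.9, 53.0, 99.7 and 24.7 in DOWN. Its mean was highest in DOWN, but the groups overlapped and the spread within UPBIG was as large as its mean (14.2 ± 14.5).

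The remaining tested ligands were given by their ranges over the 12 libraries. Ccl4, a relative of Ccl3, ran from 1.5 to 12.5 CPM and Ccl7, a ligand of Ccr1 among others, from 0.895 to 24.1. The means of Ccl4 were 5.18, 10 and 9.74 CPM in UPBIG, UPSMALL and DOWN. By edgeR with library totals, Ccl4 was called lower in UPBIG than in DOWN (adjusted p = 0.026) and UPSMALL (0.0476). Without a low-count filter it was also called lower against both (0.00857 and 0.00828). Ccl7 was 14.5 to 24.1 CPM in the DOWN libraries other than replicate 4 and 4.36 to 11.8 in UPBIG, and was called lower in UPBIG without DOWN replicate 4 (-1.52, SE 0.37, adjusted p = 0.0107 by edgeR). Cxcl9 and Cxcl10, the interferon-induced ligands of Cxcr3, ran from 3.34 to 30.5 and from 1.17 to 70.7 CPM. Cxcl17, a mucosal chemokine, was at 0 in 2 UPBIG and 3 DOWN libraries and highest in UPSMALL replicate 4 (9.61 CPM). Ccl25 and Ccl27a were also tested and uncalled. Ccl25 (mean 3.52 CPM) overlaps Elavl1 (39.2 CPM) and Ccl27a (3.27 CPM) overlaps Il11ra1 (50.9 CPM), each on the other strand. These are overlaps of whole gene spans, and whether the exons of each pair share reads was not examined. How far the counts of either ligand depend on it is not known.

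Cxcl1, Cxcl2 and Cxcl3 are ELR-bearing ligands of Cxcr2, the receptor that rose in UPBIG, and none of them passed in any comparison. Cxcl2 ran from 0.886 to 11.9 CPM in UPBIG, 1.82 to 13.1 in UPSMALL and 1.22 to 31.3 in DOWN. Cxcl1 ran from 0.358 to 3.34, 0.0444 to 4.3 and 0 to 4.97 CPM. The highest library of each group thus lay several times above the lowest. Their promoters are shown in part because the 3 genes have the same NF-kB letters (GGANNTTCC, capitals) at a similar distance from the start, in stretches of 60 bases on the plus strand of GRCm38.p6 (RefSeq): chr5:90891149-90891208 for Cxcl1, chr5:90903777-90903836 for Cxcl2 and chr5:90786003-90786062 for Cxcl3.
Cxcl1: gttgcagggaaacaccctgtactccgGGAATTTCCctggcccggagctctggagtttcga
Cxcl2: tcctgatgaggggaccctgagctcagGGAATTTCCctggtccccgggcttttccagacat
Cxcl3: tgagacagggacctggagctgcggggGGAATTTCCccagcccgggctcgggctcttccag
The letters begin 70 bases upstream of the Cxcl1 start, 96 upstream of Cxcl2 and 72 upstream of Cxcl3. Of the 26 tested members 20 have a promoter in the RefSeq table, with 25 windows. NF-kB letters were in 6 of these windows (24.0%, beside 4.3% of all windows), those of Ccl12, Ccrl2, Cxcl1, Cxcl10, Cxcl2 and Cxcl3, and in none of the 7 called members with a window. Interferon response letters were in 5 windows (20.0%, beside 8.6%), those of Ccl3, Cxcl10, Cxcl14, Cxcl9 and Cxcr1, and STAT letters in 1, that of Cxcl14. A match of letters describes the sequence and is not a measured binding site.

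The other 23 members had 1 to 97.87 counts in total over all 12 libraries, too few to be tested. Several of these came from 1 library: all 23 counts of Ackr1 and 31 of the 35 counts of Ccl21a were in DOWN replicate 3, and 58 of the 65 counts of Ccr3, the eotaxin receptor, in UPSMALL replicate 4. Cxcl15, a lung epithelial chemokine, had 21 of 23 counts in UPBIG replicate 2, the library with the highest epithelial marker sum (265.9 CPM). Ccr6, the receptor for Ccl20, had 77 counts and none in UPBIG. Ccr9 had 97.87 counts, Cxcr5 70.8, Ccl20 55, Cxcl5 45, Ackr4 18.08 and Ccl1 17, and Ccl24 and Ccl28 had 10 each. Ackr3 and Ccr4 had 7 each, Cxcl12 5 and Ccr10 4, and Ackr2, Ccr8 and Cxcl11 had 1 each. Copies of Ccl21a and Ccl27 on unplaced scaffolds, counted among the members, had at most 3.56 counts.

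Other genes of the chemokine system, which include the other receptors and ligands, chemerin, its receptor and chemokine-cutting or sulfating enzymes, fell in part in UPBIG. Of 17 such genes 14 were tested. In UPBIG against DOWN 8 were lower and 0 higher, beside 8.48% lower and 9.03% higher of all genes, with a median log2 fold change of -1.96. The 4 symbols that the rule leaves out are among these 8. Because the list was chosen with earlier results known, its counts are a description only. In UPBIG against UPSMALL 4 were lower and 0 higher, beside 2.49% and 3.22%, and in UPSMALL against DOWN 2 were lower and 0 higher, beside 0.547% and 0.594%. Gpr35, an orphan-like receptor reported to respond to a CXC chemokine, stood at 8.33, 12.3 and 21.1 CPM in UPBIG, UPSMALL and DOWN (log2 fold change -1.34, SE 0.21, adjusted p = 0.000147 by edgeR in UPBIG against DOWN). Dpp4, which clips chemokines at the amino end, had 1, 42 and 186 counts. Xcr1, a receptor of cross-presenting dendritic cells, was lower by -2.58 (SE 0.66, adjusted p = 0.0102) in UPBIG against DOWN.

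Of 40 genes that carry the receptor signal, from G protein subunits to the actin machinery, 38 were tested. In UPBIG against DOWN 3 were higher and 8 lower, beside 9.03% and 8.48% of all genes, with a median of -0.17, and the count of higher genes is near that background. Rgs10, which ends G protein signals, fell from 185.0 CPM in DOWN to 122.8 in UPSMALL and 87.9 in UPBIG, by -1.07 on the log2 scale (SE 0.11, adjusted p = 1.76e-06) between the outer groups. Rgs14 (-1.37, SE 0.22), the G protein subunit gene Gng10 (-0.89, SE 0.13) and the actin regulator gene Coro1a (-1.20, SE 0.19) were also lower in UPBIG than in DOWN. The subunit gene Gng12 was higher in UPBIG, at 236.2 CPM against 131.0 in UPSMALL and 122.0 in DOWN (0.95, SE 0.12, adjusted p = 1.2e-05), as was the phospholipase gene Plcb2 (0.93, SE 0.17, adjusted p = 0.000931). In UPBIG against UPSMALL 3 were higher and 5 lower, beside 3.22% and 2.49%, with a median of -0.18. In UPSMALL against DOWN 0 were higher and 1 lower, beside 0.594% and 0.547%, with a median of -0.07.

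Another scaling changed the balance of directions, for all genes as for the members. With library totals in place of the scaled totals, all genes called were 518 higher and 3231 lower in UPBIG against DOWN, 189 higher and 1424 lower in UPBIG against UPSMALL, and 61 higher and 96 lower in UPSMALL against DOWN. Called members were 2 higher and 8 lower in UPBIG against DOWN, 2 higher and 6 lower in UPBIG against UPSMALL, and 1 higher and 3 lower in UPSMALL against DOWN. The directions of Cxcr1, Cxcr2, Ccr1, Cxcr6, Cxcr3 and Cxcl16 in UPBIG against DOWN were the same under it.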

How the data were processed

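Polyadenylated RNA of directly lysed cells was copied into full-length cDNA and amplified, per the labels' protocols, and each value includes any bias of these steps. The deposited values are expected counts per gene and library, which the authors made with STAR and RSEM on mm10 per the submitters' processing notes. Tool versions, the annotation used and whether strand was read are not stated there, so reads from exon sequence shared by overlapping genes may not be told apart. 13.8% of values are not whole, and all were rounded.

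One edgeR 4.0.16 model (R 4.3.3) held all 12 libraries, with filterByExpr, TMM scaling, no block and robust quasi-likelihood F tests, Benjamini-Hochberg adjustment over 12625 genes and a call at an adjusted p under 0.05. An SE was obtained as the fold change on the log2 scale over the square root of its F statistic. The script was tested on simulated data. Totals of 17109669 to 23282621 counts set the precision. Symbols (26808 matched), exon lengths and coordinates came from GENCODE M21 on the same assembly. Alternatives were DESeq2 1.42.0 and its size factors, library totals, no filter or at least 5 CPM in at least 4 libraries, a replicate block, only the 8 libraries compared, and each library left out.

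Test statistics are given for members called in any comparison, for Cxcr1, and for some members called only under an alternative. Levels in every library are given for those and the 6 uncalled members highest per kilobase, and from each pathway list the 6 called genes of smallest p are named, Cx3cr1, Ccr2, Ccr7, Ccl17 and Ccl22 being counted only. 1 gene that fits the rule is not reported here. The members and lists were chosen with earlier results of these data known. Other marker lists held monocyte genes (40.9 to 51.4 CPM in UPBIG, 44.4 to 60.9 in UPSMALL, 46.7 to 93.3 in DOWN, summed) and B and plasma cell genes (1.5 to 56.7, 6.24 to 20.1 and 7.27 to 38.7). Of the 8 monocyte genes tested, Ace was called higher and Plac8 lower in UPBIG against DOWN, beside 9.03% and 8.48% of all genes. Plac8, which reached the low-count filter only with the DOWN libraries, was also called lower in UPSMALL against DOWN, beside 0.547%.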

Additional observations from a re-analysis of the deposited data

Results flagged for a closer look

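In 7 of the 78 sets of 4 libraries examined (26 tested genes in 3 groups), 1 library stood so far from the other 3 that its gap as a part of the group's range exceeded Dixon's 95% critical value. Chance gives about 1 in 20 such sets where values are normally distributed, and a set with 3 libraries at 0 always exceeds the value, as Cxcl17 in DOWN did. UPBIG replicate 3 was the high library for Cxcl1 (3.34 CPM, the others 0.358 to 0.498), Cxcl2 (11.9 CPM, the others 0.886 to 2.09) and Cxcl3 (1.81 CPM, the others 0 to 0.0597), the ELR-bearing ligands with shared NF-kB letters. DOWN replicate 1 was low for Cxcl10, at 1.17 CPM where the others held 20.4 to 23.5. DOWN replicate 4 was high for Cxcl14, at 13.7 CPM against 3.81 to 5.48. Cxcl17 stood apart in UPBIG replicate 2 (2.21 CPM, the others 0 to 0.273), the library with the highest epithelial marker sum, and in DOWN replicate 4 (0.283 CPM, the others 0).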

How the results depend on the processing

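The number of called members in UPBIG against DOWN was 7 and ran from 5 to 11 over the alternatives, being 11 without a low-count filter, 10 with library totals, 5 with the stricter filter and 6 to 7 with 1 library left out. Members tested were 49 without a filter and 19 with the stricter one, beside 26 in the main model. All genes called were 2210 of 12625 in the main model and 3749 with library totals. They were 2378 of 26549 without a filter, 1980 of 8699 with the stricter filter and 1777 to 2421 with 1 library left out. In UPBIG against UPSMALL, 4 became 8 with library totals, 6 with DESeq2 and 6 without a filter, and 3 to 5 with 1 library left out. All genes called there were 720 of 12625 in the main model, 1613 with library totals and 1060 with DESeq2. Without a filter they were 960 of 26549, and with 1 library left out 500 to 762. In UPSMALL against DOWN, 1 became 4 with library totals, 4 with DESeq2, 6 without a filter, 0 with the stricter filter, 0 with only the 8 libraries compared, and 0 to 2 with 1 library left out (0 without UPBIG replicate 2 or 4, UPSMALL replicate 1, 2 or 3 or DOWN replicate 3). For all genes the calls were 144 of 12625 in the main model, 157 with library totals and 393 with DESeq2. They were 460 of 26549 without a filter, 109 of 8699 with the stricter filter and 147 of 12279 with only the 8 libraries. With 1 library left out they ran from 58 to 179. Titles share replicate numbers, but not every same-numbered pair of libraries deviated together (correlations -0.0285 to 0.154, 5 of 12 above 0.1, beside 2 of 36 other pairs), so the numbers were not taken as pairs. A replicate block gave 8, 5 and 3 called members, beside 2607, 1025 and 275 of all 12625 genes. With it Ccl12 was gained in UPBIG against DOWN (-0.74) and UPSMALL (-1.20). Cxcr1 (1.73, adjusted p = 0.00327), Cxcl16 (-0.52, adjusted p = 0.0155) and Cxcl17 (5.59, adjusted p = 0.025) were gained in UPSMALL against DOWN. Single-gene values under the alternatives were followed for the 8 called members and some genes outside the family, not for the uncalled members. Gains of uncalled members such as Ccl12 are therefore not among them. Of these 636 values 583 kept direction and side of the threshold, 24 lost a call, 26 gained one and 3 changed sign. The sign changes were Ccl6 in UPBIG against UPSMALL (-0.02 with library totals) and Cxcr6 in the same comparison (0.00 and 0.18 without UPSMALL replicates 1 and 2, in a range of -1.06 to 0.18 with 1 library left out). Cxcr6 in UPSMALL against DOWN also lost its call with the replicate block (adjusted p = 0.0839), without a filter (0.0532) and with only the 8 libraries compared (0.104). The cause was not tested. Genes with few counts, such as Cxcr3 and Cxcr6, were not tested under the stricter filter.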

Other observations

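The same library was often the highest of its group across ligands. UPBIG replicate 3 was the highest of its group for 13 of the 19 tested ligands and DOWN replicate 3 for 12 of 19, while no UPSMALL library was highest for more than 6. DOWN replicate 4 held the lowest DOWN value of Ccl2 (4.19 CPM), Ccl3 (6.83 CPM), Ccl7 (0.895 CPM) and Ccrl2 (15.0 CPM). UPSMALL replicate 3 held the lowest UPSMALL value of the same 4 genes, at 10.0, 17, 4.67 and 11.8 CPM.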
